A study of Mus musculus with 16 samples.

Results

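The step described here runs from 6 h to 3 d after an injection of ATP into the mouse striatum. It compares 8 of the 16 RNA-seq libraries of the study, 4 at 3 d against 4 at 6 h, and each library was chosen by its stage label alone. At each time 2 libraries came from wild-type (WT) mice and 2 from mice labelled GS, a label taken to mean the LRRK2 G2019S genotype of the series title. All 8 mice or pools behind these libraries had received a unilateral injection of 0.8 µl of 500 mM ATP, so the anaesthesia, the needle track, the volume and ATP itself are shared by both sides and no group with a vehicle injection is compared. In the labels the replicates are biological ones. The labels do not give the sex, the age, the strain, whether tissue was pooled, or whether the change sits in the mouse gene or in an added copy. The other 8 libraries, from intact striatum and from 15 d after ATP, are used only to place levels and were not tested here.

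ATP leaks from damaged cells and acts on P2 receptors of microglia, the resident phagocytes of the brain, as a danger signal. In rodent brain injury, the first hours are known for immediate signalling and cell death, and the following days for the division of glial cells, the clearing of debris and the reaction of astrocytes, the star-shaped support cells that later take part in the scar. Homogenised tissue holds all of these cells, so fewer cells of a type and less RNA per cell cannot be told apart in any value below.

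Total counts ran from 54922085 to 63948110 per library, and mitochondrial genes took 10.3% to 12.8% of the counts. Of the 19457 genes of the table, each with at least 1 count in all 16 libraries, 18686 were tested, and genes outside that table are not analysed here. Pearson's r between replicates, taken over genes and so over points that are not independent, was 0.990 to 0.994. Along the first principal component, with 67.0% of the variance of the 8 libraries, the 2 times were separated. The 20 striatal projection neuron markers summed to 16349 to 17729.5 CPM at 6 h and 13602 to 16179.8 CPM at 3 d, so the markers of the labelled tissue were present in each library. Libraries stood apart in 2 ways. WT 6 h replicate 2 had more RNA of cortical excitatory neuron markers, with 72.8 CPM of the vesicular glutamate transporter gene Slc17a7 against 15.3 to 17.2 CPM in the other 3 libraries at 6 h. WT 3 d replicate 1 had the lowest level of the 4 libraries at 3 d for many microglial genes and the highest for C3 and Plin4. Counts were also made without both of these libraries.

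Below, a gene rose or fell when it was higher or lower at 3 d than at 6 h with an adjusted p under 0.05 in edgeR's quasi-likelihood test with genotype as covariate. Values written as a ± b are log2 fold changes, 3 d minus 6 h, with the standard error derived from the F statistic (4 libraries a side). Levels are CPM, each library's counts scaled to a common total with TMM factors, and 4 values at one time are always given in the order WT replicate 1, WT replicate 2, GS replicate 1 and GS replicate 2.

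Nearly as many genes rose as fell, but the large changes were mostly rises. Of the genes tested 8668 passed (46.4%), 4359 upward (23.3%) and 4309 downward (23.1%), and the median log2 fold change over all tested genes was -0.01. At 2-fold or more, 1190 genes rose (6.37%) and 575 fell (3.08%). The 4 libraries at 3 d lay wholly above those at 6 h for 4049 genes (21.7%) and wholly below for 4116 (22%). With so much of the transcriptome called, a list in which about 1 in 4 members rose is at the background. Counts for the lists are read against these shares.

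**Figure D1:**
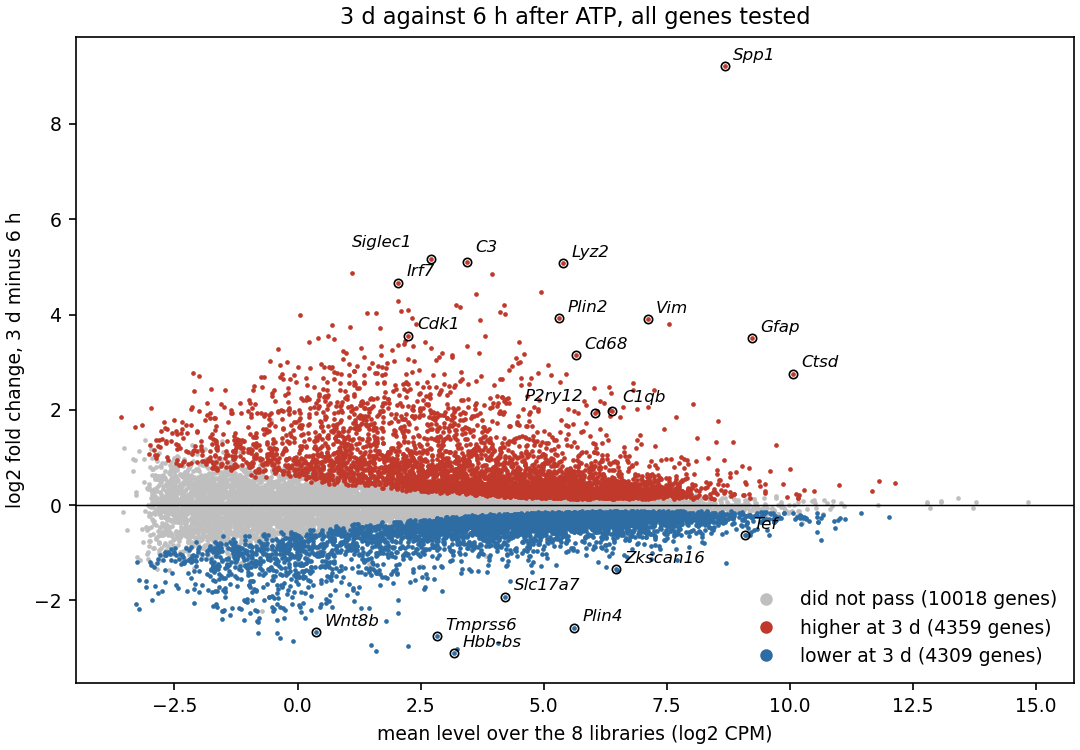
Each point is 1 of the 18686 genes tested, with its mean level over the 8 libraries (log2 CPM) on the horizontal axis and its log2 fold change, 3 d minus 6 h, on the vertical axis. Red points rose (4359), blue points fell (4309) and grey points did not pass (10018), with Spp1 highest at 9.21 and the globin gene Hbb-bs lowest at -3.11.

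Spp1, which encodes the secreted phosphoprotein osteopontin, had the largest log2 fold change. The gene (NCBI Gene 20750, mm10 chromosome 5, positions 104435111 to 104441053) measured 0.597, 0.994, 2.82 and 1.15 CPM at 6 h and 311, 747, 814 and 1412 CPM at 3 d. Every library at 3 d was more than 100-fold above every library at 6 h, and the log2 fold change was 9.21 ± 0.40 (adjusted p = 1.70e-07). Gfap, the intermediate filament gene of astrocytes, had the smallest p of all genes (NCBI Gene 14580, mm10 chromosome 11, positions 102887336 to 102897200). It measured 75.1, 90.5, 119 and 110.0 CPM at 6 h and 899, 1124, 1101 and 1304 CPM at 3 d, with no overlap (3.5 ± 0.10, adjusted p = 2.54e-08). The complement genes C1qb and C1qc (1.98 ± 0.07 and 2.48 ± 0.10) and the ETS factor gene Etv5 (1.88 ± 0.07) were the next most precise rises. Among falls, the smallest p values belonged to the zinc finger gene Zkscan16, at 119, 129, 131 and 126 CPM and then 49.5, 47.4, 49.9 and 52.6 CPM (-1.34 ± 0.05, adjusted p = 1.02e-07), and to Hrk, which encodes a BH3-only activator of cell death (-1.1 ± 0.05). Hrk stood at 138, 142, 141 and 142 CPM at 6 h and 61.5, 63.9, 68.1 and 69.1 CPM at 3 d, about 2-fold lower in each library. Adamts3, a procollagen protease gene (-1.14 ± 0.05), Rasl11b (-1.58 ± 0.09) and Prima1, which encodes the membrane anchor of acetylcholinesterase (-1.36 ± 0.08), fell too.

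Genes of the dividing cell made up one of the most uniform groups. Of 24 mitosis genes tested 23 rose and 0 fell (background 23.3% and 23.1%), with a median log2 fold change of 2.21 and a range of 0.21 to 3.56. Of 25 genes of DNA replication and the G1/S transition 19 rose and 1 fell, with a median of 1.4. The promoters of such genes carry short known elements. The CHR is bound by the DREAM and MuvB complexes, the CCAAT box by NF-Y, and the E2F site by E2F factors. RefSeq promoter windows of GRCm38.p6 (mm10), 250 bases before to 50 after the start, were found for 21 of the 24 mitosis genes and 19 of the 25 replication genes. A gene was counted when any of its windows held the letters. TTTGAA, the CHR letters, lay on either strand in 15 of 21 mitosis genes (71.4%) against 15.1% of the 13534 tested genes with a window. CCAAT lay in 17 of 21 (81.0%) against 42.1%. TTCCCGC, the E2F letters, lay in 10 of 19 replication genes (52.6%) against 8.73%. These matches describe the sequence and show no binding.

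The 150 bases before an annotated start of 4 mitosis genes and 2 replication genes are shown. Their RNA was among the most changed of their lists or they hold the elements closest to the start. Capitals mark CHR and CCAAT letters, or E2F letters, on either strand. A gene can have several annotated starts, and only starts whose 150 bases held the CHR or E2F letters were used. The Cdc6 stretch lies inside the annotated gene, which begins at position 98907709, and those of Prc1 and Mki67 run partly into theirs. The stretches lie, Cdk1 at chr10:69352913-69353062 on the minus strand, Prc1 at chr7:80294326-80294475 on the plus strand, Mki67 at chr7:135716380-135716529 on the minus strand, Cdc20 at chr4:118437344-118437493 on the minus strand, Uhrf1 at chr17:56303187-56303336 on the plus strand and Cdc6 at chr11:98908001-98908150 on the plus strand.
Cdk1: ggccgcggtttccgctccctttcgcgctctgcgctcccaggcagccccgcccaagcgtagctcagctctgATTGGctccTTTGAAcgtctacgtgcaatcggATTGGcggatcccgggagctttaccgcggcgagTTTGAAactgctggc
Prc1: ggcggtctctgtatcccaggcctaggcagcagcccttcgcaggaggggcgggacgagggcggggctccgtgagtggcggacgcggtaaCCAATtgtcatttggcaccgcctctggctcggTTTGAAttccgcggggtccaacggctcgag
Mki67: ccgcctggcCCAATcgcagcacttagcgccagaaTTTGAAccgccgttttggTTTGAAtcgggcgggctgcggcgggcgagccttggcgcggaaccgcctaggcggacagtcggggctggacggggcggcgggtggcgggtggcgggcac
Cdc20: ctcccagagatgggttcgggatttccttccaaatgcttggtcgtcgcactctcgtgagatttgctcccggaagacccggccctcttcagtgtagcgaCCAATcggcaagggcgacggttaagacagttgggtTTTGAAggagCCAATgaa
Uhrf1: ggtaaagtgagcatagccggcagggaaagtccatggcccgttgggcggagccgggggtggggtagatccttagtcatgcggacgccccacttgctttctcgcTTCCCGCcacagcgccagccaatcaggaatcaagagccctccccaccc
Cdc6: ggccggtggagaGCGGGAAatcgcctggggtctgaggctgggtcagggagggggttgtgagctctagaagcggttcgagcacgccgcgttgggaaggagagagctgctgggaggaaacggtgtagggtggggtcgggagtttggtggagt

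Cdk1, the kinase that drives entry into mitosis, measured 0.853, 0.904, 0.639 and 0.592 CPM at 6 h and 3.79, 12.4, 7.31 and 11.6 CPM at 3 d (3.56 ± 0.36, adjusted p = 2.25e-05). It was 0.107 to 0.308 CPM in intact striatum and 1.92 to 3.66 CPM at 15 d, so the 4 libraries at 3 d held the highest levels of the 16. Prc1, a microtubule bundler of the dividing spindle, was 1.19, 2.15, 1.26 and 1.44 CPM and then 5.72, 17.6, 12.7 and 19.4 CPM (3.18 ± 0.35), and its position overlaps Rccd1. Mki67, the gene of the Ki-67 antigen used to mark cycling cells, was 4.64, 7.43, 4.1 and 4.13 CPM at 6 h and 19.4, 49.1, 36 and 59.2 CPM at 3 d (3.01 ± 0.32), and the checkpoint kinase gene Bub1 rose by 2.99 ± 0.31. In all 4 genes the groups did not overlap, and WT 3 d replicate 1 was the lowest library at 3 d. Upstream in the cycle, Rrm2, which makes deoxynucleotides, was 1.43, 2.67, 2.43 and 2.64 CPM and then 6.51, 16.6, 12.3 and 18.4 CPM (2.55 ± 0.29). Mcm6, a subunit of the replicative helicase (2.36 ± 0.28), Uhrf1, which carries DNA methylation through replication (2.33 ± 0.29), and the licensing factor gene Cdc6 (2.28 ± 0.31) rose too. The G1 cyclin gene Ccnd1 was 15.9 to 20.1 CPM at 6 h and 53.6 to 94.4 CPM at 3 d (2.02 ± 0.16). Without WT 6 h replicate 2 and WT 3 d replicate 1, 23 mitosis and 19 replication genes rose. The replication gene that fell was Ccne2, a G1 cyclin gene (-0.50 ± 0.14), a call lost without WT 6 h replicate 2 (-0.44).

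**Figure D2:**
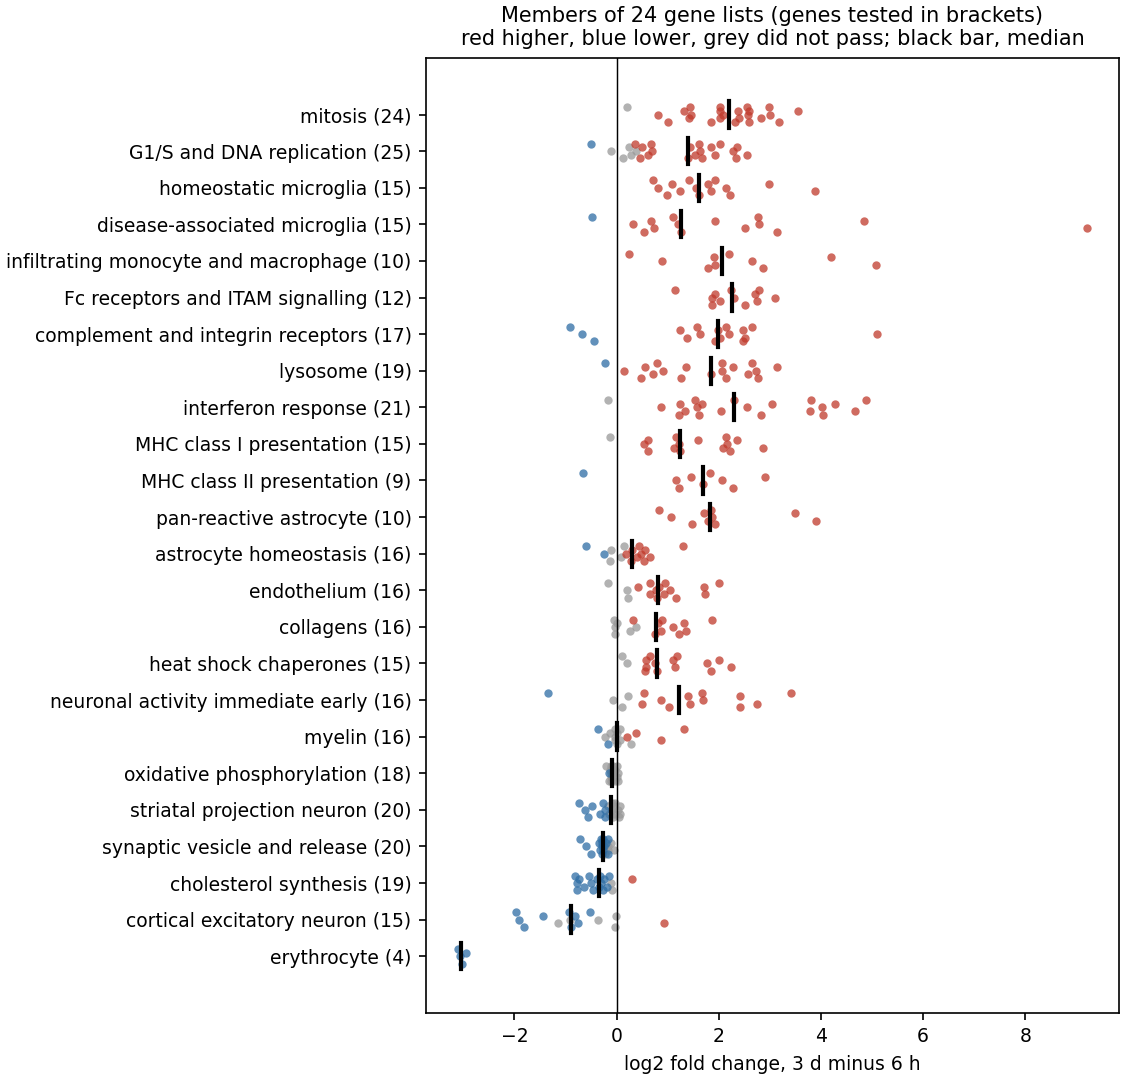
The log2 fold change, 3 d minus 6 h, is plotted for each tested member of 24 gene lists, with members in red when they rose, blue when they fell and grey when they did not pass, and a black bar at the list's median. Mitosis (median 2.21), interferon (2.3) and Fc receptor genes (2.27) lie to the right, myelin and oxidative phosphorylation genes near 0, and the 4 globin genes (-3.04) far to the left.

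Every measured marker of homeostatic microglia was higher at 3 d. Of 15 genes tested 15 rose (14 without WT 6 h replicate 2 and WT 3 d replicate 1), with a median log2 fold change of 1.61. Their summed level was 540.4 to 671 CPM at 6 h and 1268 to 2155 CPM at 3 d, and 709 to 828 CPM in intact striatum. P2ry12, the ADP receptor that guides microglial processes to injury, was 33.7, 27.5, 22.1 and 25.4 CPM at 6 h and 61.7, 103, 117 and 138 CPM at 3 d (1.92 ± 0.21, adjusted p = 3.53e-05). Intact striatum held 44.4 to 50.8 CPM, so the 4 libraries at 6 h lay below the intact range and the 4 at 3 d above it (its position overlaps Med12l). Fcrls was 1.62, 1.3, 2.05 and 1.65 CPM and then 15.3, 26.8, 23.3 and 33 CPM (3.88 ± 0.20), and Olfml3, a secreted matrix protein gene, 4.98, 4.75, 4.64 and 5.47 CPM and then 28, 40.0, 40.8 and 48.7 CPM (2.98 ± 0.13). Both were lower at 6 h than in intact striatum, at 2.82 to 3.7 CPM for Fcrls and 10.6 to 13.8 CPM for Olfml3. Gpr34, a lysophospholipid receptor gene (2.21 ± 0.22), rose as well, although its position overlaps Cask. Csf1r, the growth factor receptor that microglia need to survive, was 79.6 to 95 CPM at 6 h and 188 to 322 CPM at 3 d (1.61 ± 0.11).

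Genes of the disease-associated state of microglia moved the same way with one exception. Of 15 tested 14 rose and 1 fell, with a median of 1.26. After Spp1 came Lgals3, the gene of the lectin galectin-3, at 1.38, 0.958, 1.02 and 0.772 CPM and then 12.7, 38.3, 28.3 and 40.8 CPM (4.84 ± 0.36). Cd68, a membrane protein of phagolysosomes, was 12, 9.67, 10.5 and 8.24 CPM and then 50.5, 99.99, 90.9 and 122 CPM (3.15 ± 0.23). Tyrobp, the signalling partner of Trem2, was 7.78, 7.37, 7.06 and 7.77 CPM and then 34, 58.8, 57.1 and 57.4 CPM (2.78 ± 0.15). For Tyrobp, WT 3 d replicate 1 lay well under the other 3 libraries at 3 d and still above each library at 6 h. Lpl, the lipoprotein lipase gene, was the member that fell, from 186 to 207 CPM to 134 to 145 CPM (-0.49 ± 0.05). Apoe, the apolipoprotein gene, rose slightly at this step (0.32 ± 0.09, a call lost without WT 3 d replicate 2 (0.23) or GS 3 d replicate 1 (0.25)) and stood at 1169.6 to 1584 CPM at 3 d and 3450.2 to 7538 CPM at 15 d.

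Lysosomal genes rose almost as a whole. Of 19 tested 18 rose and 1 fell, with a median of 1.84. The member that fell was the lysosomal calcium channel gene Mcoln1 (-0.22 ± 0.05). The aspartic protease gene Ctsd was 253, 261, 271 and 308 CPM at 6 h and 1118, 2086, 1914 and 2347 CPM at 3 d (2.76 ± 0.17). Gusb, a glucuronidase gene, was 8.9, 8.98, 8.67 and 10.3 CPM and then 38.5, 67.3, 63.2 and 77.5 CPM (2.73 ± 0.16), and Ctsc, which encodes a protease that activates other proteases, 7.78, 6.65, 7.78 and 6.71 CPM and then 40.4, 42.1, 40.1 and 61.2 CPM (2.66 ± 0.13). Among genes of sterol efflux and lipid handling 13 of 16 rose and 2 fell, Lpl and the cholesterol ester hydrolase gene Nceh1 (-0.23 ± 0.06). Plin2, the coat protein of lipid droplets, was 4.45, 4.16, 5.95 and 4.86 CPM and then 35.5, 85.3, 68.8 and 107 CPM (3.92 ± 0.26). The scavenger receptor Cd36 (4.1 ± 0.47), the cholesterol hydroxylase Ch25h (2.6 ± 0.29) and the cholesterol esterifying enzyme Soat1 (1.49 ± 0.10) rose too. Genes of cholesterol synthesis went the other way, 16 of 19 lower and 1 higher, at a median of -0.35. Lss, lanosterol synthase, was 42.7, 46.6, 46.4 and 45.4 CPM and then 26.1, 25.6, 26.2 and 27.3 CPM (-0.78 ± 0.05), and Fdft1, squalene synthase, fell too (-0.82 ± 0.14). Without WT 6 h replicate 1, 0 rose. Markers of cortical neurons also fell at this step, as described below, and with their level as a covariate 8 of the 19 synthesis genes fell and 0 rose.

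Receptors and signalling genes of phagocytes rose together. All 12 tested genes of Fc receptors and ITAM signalling, the pathway that couples antibody binding to engulfment, rose, with a median of 2.27, and the 2 times did not overlap for any of them. Fcgr2b, the inhibitory IgG receptor, was 1.5, 1.05, 1.77 and 1.78 CPM and then 8.84, 12.2, 12.5 and 19.4 CPM (3.11 ± 0.18). The high-affinity receptor Fcgr1 was 2.3, 2.01, 2.02 and 1.74 CPM and then 9.61, 14.3, 12.2 and 18.7 CPM (2.75 ± 0.19), and the shared signalling chain Fcer1g 4.06, 3.54, 3.34 and 2.92 CPM and then 15.6, 23.5, 22 and 30.7 CPM (2.71 ± 0.19). GAGGAAG, letters bound by the myeloid factor PU.1, lay in a promoter window of 4 of the 9 genes of this list that had one (44.4%), against 16% of tested genes. Spi1, which encodes PU.1, rose from 2.42 to 3.36 CPM to 8.34 to 11.8 CPM (1.95 ± 0.13). Of 15 myeloid transcription factor genes 12 rose and 0 fell, among them Irf8 (1.93 ± 0.18) and Runx1 (1.66 ± 0.23).

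Of 17 complement and integrin genes 14 rose and 3 fell, at a median of 1.98. The 3 that fell were C2 (-0.92 ± 0.25) and the complement inhibitors Cd55 (-0.67 ± 0.13) and Cd59a (-0.44 ± 0.08). C1qb, a chain of the complement component that tags debris and synapses, was 34.1, 31.9, 35.9 and 34.1 CPM and then 119, 143, 125 and 149.5 CPM (1.98 ± 0.07), and C1qc 23.1, 22.8, 25.4 and 26.9 CPM and then 107, 156, 136 and 146 CPM (2.48 ± 0.10). C3, the central component of the cascade, was 0.273, 0.325, 0.656 and 0.52 CPM at 6 h and 70.5, 4.53, 4.37 and 5.7 CPM at 3 d. A single library, WT 3 d replicate 1, was more than 10-fold above the other 3. The log2 fold change was 5.1 ± 0.97 with it and 3.41 without it (adjusted p = 4.14e-07). C3ar1, the receptor of a C3 fragment (2.65 ± 0.26), and Itgb2, the shared chain of the leukocyte integrins (2.52 ± 0.13), rose with smaller spread. Of 16 scavenger and clearance receptors 12 rose and 2 fell, Tyro3 (-0.41 ± 0.06) and Scarb1 (-0.36 ± 0.06). Msr1, which takes up modified lipoproteins and dead cells, was 1.65, 2.08, 2.59 and 1.08 CPM and then 21.4, 36.2, 29.7 and 51 CPM (4.2 ± 0.28), against 0.0751 to 0.142 CPM in intact striatum. Pros1, a bridging ligand of the clearance receptor Mertk, rose by 1.95 ± 0.12. In the toll-like receptor and NF-kappaB list 15 of 22 rose and 0 fell, led by the receptors Tlr4 (2.52 ± 0.22), Tlr2 (2.38 ± 0.22), Tlr13 (2.2 ± 0.19) and Tlr7 (2.03 ± 0.16). In the Jak-Stat and gp130 list 9 of 15 rose and 2 fell, the feedback gene Socs2 (-0.73 ± 0.09) and Cish (-0.37 ± 0.11, lost without WT 6 h replicate 2 (-0.34) or GS 6 h replicate 1 (-0.32)). Of 10 cytokine and chemokine genes tested 7 rose and 0 fell. Tgfb1 was 4.2, 3.38, 4.18 and 3.77 CPM and then 8.36, 13.9, 16.3 and 18.4 CPM (1.84 ± 0.18). Il1rn, the interleukin-1 receptor antagonist, was 0.648, 1.41, 1.13 and 0.61 CPM and then 9.77, 1.5, 1.7 and 2.6 CPM (1.9 ± 0.53, and 1.0 without WT 3 d replicate 1, the library at 9.77 CPM). Il1b, Tnf, Il6 and Ccl2 are not analysed here.

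Markers of monocytes and macrophages that enter from the blood rose, those of macrophages at the borders of the brain rose in part, and those of lymphocytes did not rise. Of 16 markers listed for infiltrating monocytes and macrophages 10 were measured and tested, and all 10 rose, with a median of 2.06. Their sum was 86.9 to 106 CPM at 6 h and 217 to 490.4 CPM at 3 d. It was already 78.6 to 93.4 CPM in intact striatum. Ly6c2, which marks inflammatory monocytes, was 0.887, 0.976, 1.03 and 0.951 CPM and then 1.7, 1.37, 1.78 and 2.31 CPM (0.88 ± 0.19), and Ccr2, their chemokine receptor, is not analysed here. Lyz2, the lysozyme of myeloid cells, was 2.01, 2.19, 2.56 and 2.46 CPM and then 32.5, 74.8, 80.2 and 139.6 CPM (5.09 ± 0.31), and reads shared with Lyz1 make it uncertain. Ms4a6c was 1.06, 0.867, 1.02 and 0.915 CPM and then 16.3, 15.9, 14.7 and 24.1 CPM (4.19 ± 0.17), S100a4 rose by 2.87 ± 0.31 and Thbs1, a matrix glycoprotein that activates TGF-beta, by 2.64 ± 0.34. Of 9 border-associated macrophage markers 6 rose, with a median of 1.0 (4 rose without WT 6 h replicate 2 or without WT 3 d replicate 2). Siglec1, a sialic acid binding receptor that interferon also induces, was 0.324, 0.217, 0.426 and 0.449 CPM and then 4.88, 13.5, 11.8 and 21 CPM (5.16 ± 0.37). Stab1, a scavenger receptor (2.07 ± 0.16), and F13a1, a transglutaminase chain (1.91 ± 0.22), rose too. Microglia express several genes of both lists, and the parts of microglia and of entering cells were not tested. Few markers of other leukocytes were measured. Csf3r, a neutrophil and microglial receptor, was 7.25, 6.69, 5.67 and 5.15 CPM and then 25.5, 38.1, 45.2 and 52 CPM (2.67 ± 0.19), while Mmp9 was 0.38 to 0.538 CPM and 0.403 to 1.63 CPM and did not pass (0.90 ± 0.39, adjusted p = 0.082). Its value was 0.41 without WT 3 d replicate 1, and it passed without WT 3 d replicate 2 (1.09) or GS 3 d replicate 2 (1.17). Of the 3 lymphocyte markers measured, Cd4 fell from 133 to 151 CPM to 69.3 to 85.2 CPM (-0.93 ± 0.07), and Lck also fell (-0.54 ± 0.17), a call lost without GS 6 h replicate 2 (-0.43) or GS 3 d replicate 2 (-0.50).

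The largest falls of all tested genes were those of haemoglobin. All 4 globin genes measured fell, at a median of -3.04, and their sum was 27.7 to 59 CPM at 6 h, 2.84 to 11.6 CPM at 3 d and 3.34 to 5.81 CPM in intact striatum. Hbb-bs was 16.2, 20.1, 18.4 and 9.85 CPM at 6 h and 2.69, 3.84, 0.815 and 0.989 CPM at 3 d (-3.11 ± 0.31, adjusted p = 1.84e-05), and Hba-a1 18, 21.4, 17.2 and 9.55 CPM and then 2.28, 4.46, 1.13 and 1.03 CPM (-3.02 ± 0.28). Within each pair of globin genes reads can be shared between near-identical copies, so the members are not independent. Other genes with large falls were Tmprss6, a membrane protease that lowers hepcidin, at 8.97, 10.2, 14.2 and 16.4 CPM and then 3.99, 0.941, 1.22 and 1.28 CPM (-2.75 ± 0.41, and -3.51 without WT 3 d replicate 1), and Wnt8b, a Wnt ligand, at 2.3, 2.28, 1.85 and 2.57 CPM and then 0.24, 0.293, 0.408 and 0.495 CPM (-2.67 ± 0.24). Plin4, a lipid droplet coat gene, was 58.2, 70.7, 101 and 102 CPM at 6 h and 36.5, 7.9, 8.32 and 7.37 CPM at 3 d (-2.57 ± 0.49). The library at 36.5 CPM was WT 3 d replicate 1, and the log2 fold change was -3.42 without it. Rgsl1 (-2.93 ± 0.34), Acr (-2.44 ± 0.21), Oacyl (-2.25 ± 0.19) and the calcium channel gamma subunit gene Cacng1 (-2.15 ± 0.20) fell with 3 Gm genes, Gm46846, Gm46860 and Gm9997, and 1700014D04Rik, none of whose levels exceeded 8.15 CPM in any library at 6 h.

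**Figure D3:**
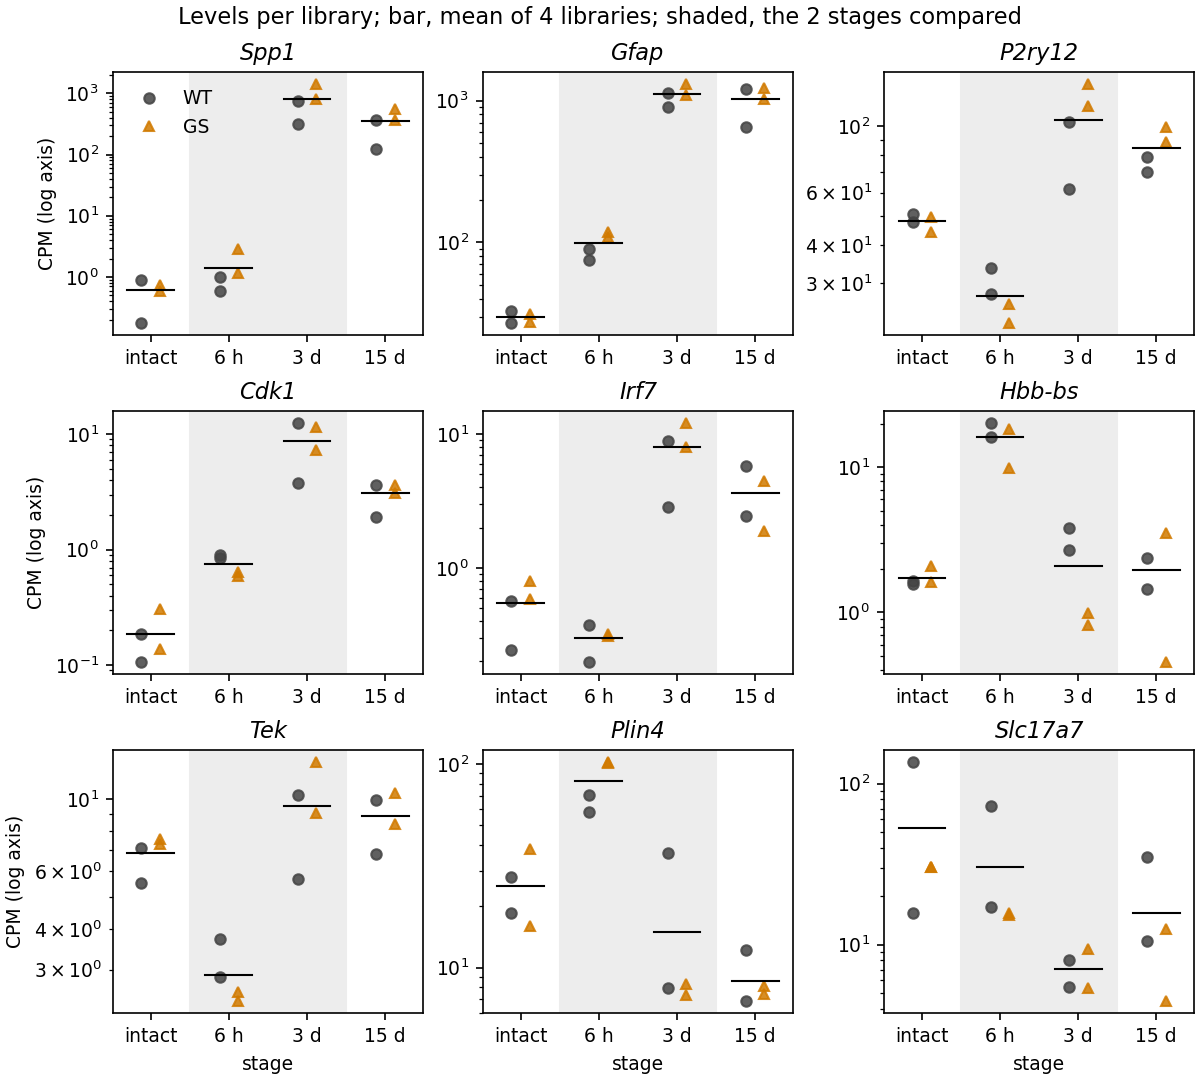
The CPM of 9 genes on log axes is shown for every library of the study by stage, with circles for WT, triangles for GS, a bar at the mean of the 4 libraries of a stage and shading over the 2 stages compared. Spp1, Gfap, Cdk1 and Irf7 are above all libraries at 6 h in each library at 3 d, P2ry12 and Tek dip at 6 h below intact striatum before they rise, and Hbb-bs and Plin4 are highest at 6 h.

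Interferon-induced genes were near their intact levels at 6 h and higher at 3 d. Of 21 tested 20 rose and 0 fell, with a median of 2.3, and the sum was 72.1 to 74.7 CPM at 6 h, 71.7 to 74.7 CPM in intact striatum and 137 to 274 CPM at 3 d. Irf7, a transcription factor of the pathway, was 0.375, 0.199, 0.311 and 0.323 CPM and then 2.84, 8.79, 8.04 and 12 CPM (4.67 ± 0.39, adjusted p = 5.93e-06). Oas1a, a sensor of double-stranded RNA with close paralogs, was 0.0682, 0.0904, 0.279 and 0.126 CPM and then 1.44, 5.14, 3.57 and 6.41 CPM (4.88 ± 0.48). Bst2, which tethers budding particles to the cell, was 0.392, 0.325, 0.344 and 0.538 CPM and then 4.46, 8.82, 7.83 and 10.1 CPM (4.28 ± 0.26). Ifi27l2a rose by 4.03 ± 0.41, Ifit1, which binds foreign RNA caps, by 4.03 ± 0.27, and Isg15, a ubiquitin-like protein, by 3.78 ± 0.29. In Irf7, Oas1a and Bst2 WT 3 d replicate 1 was the lowest at 3 d and GS 3 d replicate 2 the highest, and all 4 libraries at 3 d were above all 4 at 6 h. Stat2, a subunit of the factor that reads the interferon signal, did not pass, at 26.2 to 29.6 CPM and 21.6 to 28.8 CPM (-0.18 ± 0.09), and fell without GS 3 d replicate 2 (-0.27).

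The element these promoters are known for is the ISRE, which IRF factors bind. Its letters were searched as GAAA, any 2 bases and again GAAA on both strands. They lay in a window of 10 of the 16 genes of the list that had one (62.5%). The share was 3.64% of tested genes and 5.08% of the genes that rose. The 150 bases before an annotated start of 4 genes are shown with those letters in capitals to let the spacing be seen. Only starts whose 150 bases held the letters were used, and the Oas1a stretch runs partly into the annotated gene, which ends at position 120907544. The stretches lie, Ifit1 at chr19:34640739-34640888 on the plus strand, Isg15 at chr4:156200819-156200968 on the minus strand, Oas1a at chr5:120907526-120907675 on the minus strand and Bst2 at chr8:71537473-71537622 on the minus strand.
Ifit1: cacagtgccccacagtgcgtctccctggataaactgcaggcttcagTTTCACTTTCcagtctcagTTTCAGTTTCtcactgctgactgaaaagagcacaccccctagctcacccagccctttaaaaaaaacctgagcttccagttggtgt
Isg15: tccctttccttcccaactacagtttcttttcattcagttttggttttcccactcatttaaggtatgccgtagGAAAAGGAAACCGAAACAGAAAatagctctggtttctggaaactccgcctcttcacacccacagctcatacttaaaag
Oas1a: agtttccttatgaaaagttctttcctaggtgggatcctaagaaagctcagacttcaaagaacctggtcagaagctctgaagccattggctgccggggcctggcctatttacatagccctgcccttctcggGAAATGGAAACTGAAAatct
Bst2: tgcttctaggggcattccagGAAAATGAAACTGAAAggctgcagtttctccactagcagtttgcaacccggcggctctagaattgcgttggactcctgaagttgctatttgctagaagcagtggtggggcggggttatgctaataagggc

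Isg15, Oas1a and Bst2 hold overlapping copies of the letters, so that the capitals run together, and Ifit1 holds 2 separate ones. Antigen presentation rose beside these genes. Of 15 MHC class I genes 14 rose and 0 fell, at a median of 1.24. B2m, the light chain of every class I molecule, was 27.9, 28, 25.6 and 24.8 CPM and then 86.9, 133, 135 and 201 CPM (2.36 ± 0.19), and the immunoproteasome subunit gene Psmb8 0.819, 0.94, 0.459 and 1.09 CPM and then 3.99, 6.29, 6.44 and 7.71 CPM (2.87 ± 0.26). Of 9 MHC class II genes 8 rose and 1 fell, at a median of 1.7, and the one that fell was the peptide loading gene H2-DMa (-0.66 ± 0.07). Cd74, the invariant chain, was 1.96, 0.922, 1.87 and 1.2 CPM and then 2.91, 6.57, 8.69 and 12.7 CPM (2.27 ± 0.34), against 39.5 to 88.8 CPM at 15 d. Ctss, the protease that trims it, rose by 2.06 ± 0.10 and H2-Aa, a class II chain with paralogs, by 2.9 ± 0.36. Cd40 rose by 1.83 ± 0.55, with groups that overlapped, and the call was lost without GS 6 h replicate 2 (1.61), WT 3 d replicate 2 (1.45) or GS 3 d replicate 2 (1.36).

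Astrocytes are known to answer injury by filling with intermediate filament. All 10 pan-reactive astrocyte genes tested rose, with a median of 1.82, and the sum was 183 to 266 CPM at 6 h and 1425 to 1959 CPM at 3 d. Beside Gfap, the filament gene Vim was 13.7, 19.7, 20.1 and 15.3 CPM and then 165, 292, 244 and 337 CPM (3.91 ± 0.20), Cd44, a hyaluronan receptor, 7.78, 6.45, 7.8 and 6.64 CPM and then 26.4, 24.6, 23 and 35.5 CPM (1.93 ± 0.13), and Osmr, the oncostatin M receptor, rose by 1.07 ± 0.17. Aspg rose by 1.86 ± 0.38. Of the 11 A1 genes 7 rose and 1 fell (median 1.59), and of the 9 A2 genes 6 rose and 0 fell (median 1.35). The A1 gene that fell was Fkbp5, a glucocorticoid-induced chaperone (-1.0 ± 0.16). The A1 genes with the largest changes were Psmb8, which is also on the class I list, Iigp1 (2.77 ± 0.36), Gbp2 (1.94 ± 0.22) and Ggta1 (1.88 ± 0.17). The A2 genes were Cd109 (1.86 ± 0.25), Emp1 (1.82 ± 0.25), the cytokine gene Clcf1 (1.82 ± 0.27) and B3gnt5 (1.46 ± 0.26). Housekeeping functions of astrocytes moved less, with 10 of 16 genes higher, 2 lower (Gjb6 among them) and a median of 0.30. The water channel gene Aqp4 was 74.6, 70.9, 72.3 and 70.7 CPM and then 134, 177, 164 and 237 CPM (1.29 ± 0.12), and the potassium channel gene Kcnj10 (0.65 ± 0.09) and connexin gene Gja1 (0.55 ± 0.08) rose. Gjb6, another connexin gene of astrocytes, fell with overlapping groups (-0.61 ± 0.17), a call lost without GS 3 d replicate 1 (-0.49).

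Vessel genes were higher at 3 d in most cases. Of 16 endothelial genes 13 rose and 0 fell, at a median of 0.81. Their sum was 214 to 237 CPM at 6 h, below the 249.8 to 308 CPM of intact striatum, and 339 to 445 CPM at 3 d. Vwf, the clotting factor carried by endothelial cells, was 3.7, 3.27, 3.98 and 3.62 CPM and then 13.4, 13.9, 13.9 and 17.2 CPM (2.0 ± 0.10), and the angiopoietin receptor Tek 3.74, 2.86, 2.56 and 2.4 CPM and then 5.71, 10.3, 9.1 and 13 CPM (1.71 ± 0.24). Its relative Tie1 (1.72 ± 0.16) and the TGF-beta co-receptor Eng (1.16 ± 0.12) rose as well. Of 15 barrier transporters 11 rose and 2 fell, the lipid carrier Mfsd2a (-0.70 ± 0.14) and the transferrin receptor Tfrc (-0.51 ± 0.11). The glutamine transporter gene Slc38a5 was 0.136, 0.253, 0.279 and 0.179 CPM and then 1.76, 1.97, 2.97 and 3.15 CPM (3.5 ± 0.24), with 1.26 to 2.34 CPM in intact striatum, so it was below the intact range at 6 h, and at 3 d 2 libraries lay within that range and 2 above it. Slco1c1, the thyroxine transporter (1.05 ± 0.09), Slc22a8 (1.05 ± 0.18) and Slc38a3 (0.98 ± 0.10) rose. Among pericyte and smooth muscle genes 10 of 13 rose (7 without WT 6 h replicate 2 and 8 to 11 without any other single library), including Acta2 (1.87 ± 0.16), Anpep (1.83 ± 0.25) and Rgs5 (0.90 ± 0.14).

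Matrix genes rose in part. Of 16 collagens 10 rose and 0 fell (median 0.78), with Col3a1 at 2.54, 1.55, 2.39 and 2.14 CPM and then 5.31, 8.16, 5.61 and 12.6 CPM (1.86 ± 0.26), Col1a2 at 1.36 ± 0.26 and Col16a1 at 1.32 ± 0.10. Among fibroblast and matrix genes 14 of 21 rose and 2 fell, fibrillin Fbn1 (-0.88 ± 0.15) and laminin Lamb1 (-0.42 ± 0.07). Fn1, fibronectin, was 18.2, 20.6, 20.4 and 19.2 CPM and then 56.7, 75.6, 100.4 and 142 CPM (2.19 ± 0.18), and the proteoglycans Lum (2.26 ± 0.38) and Bgn (1.64 ± 0.17) rose. In the scar proteoglycan list 11 of 16 rose and 2 fell, aggrecan Acan (-1.05 ± 0.20) and the hyaluronan synthase Has1 (-0.51 ± 0.14). With the cortical marker level as a covariate 9 rose and 0 fell. Tnc, tenascin C, a matrix protein of wounds, was 2.0, 2.49, 1.9 and 2.31 CPM and then 12, 28.2, 25.7 and 38 CPM (3.54 ± 0.28), and was 8.11 to 9.88 CPM at 15 d. Of 20 matrix proteases and inhibitors 11 rose and 2 fell, the inhibitor Reck (-0.65 ± 0.07) and Plat (-0.22 ± 0.07, lost without GS 6 h replicate 1 (-0.22), GS 6 h replicate 2 (-0.18) or GS 3 d replicate 1 (-0.17)). Plau, the urokinase that starts plasmin formation, was 1.19, 0.867, 0.901 and 1.11 CPM and then 4.87, 14.1, 9.57 and 15.3 CPM (3.41 ± 0.33). Mmp2 (2.25 ± 0.26) and Adam8 (2.23 ± 0.22) rose with it. Growth factor genes rose in 15 of 21 cases and fell in 0. Igfbp2, which binds insulin-like growth factors, was 6.45, 6.13, 5.16 and 8.61 CPM and then 20.0, 34.7, 30.7 and 34.4 CPM (2.18 ± 0.18), and Hbegf, an EGF receptor ligand, 16.9, 15.7, 13.1 and 13.8 CPM and then 41.6, 41.2, 41 and 37 CPM (1.44 ± 0.07).

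Most myelin genes did not pass. Of 16 myelin genes 4 rose, 2 fell and 10 did not pass, at a median of 0.01. Without GS 3 d replicate 2, 4 fell. The genes that fell with all libraries were Opalin (-0.36 ± 0.11, lost without WT 6 h replicate 1 (-0.34), WT 6 h replicate 2 (-0.32) or GS 3 d replicate 1 (-0.34)) and Mal (-0.16 ± 0.05, lost without 4 of the 8 libraries in turn (-0.17 to -0.13 without them)). The transferrin gene Trf was 176, 195, 197 and 248 CPM and then 320.3, 511, 542 and 689 CPM (1.32 ± 0.14), and the lipid enzyme genes Ugt8a and Fa2h rose by 0.88 ± 0.14 and 0.37 ± 0.06. Precursor genes were higher in 11 of 15 cases, by at most 0.96 in Gpr17, a receptor of committed precursors, at 48.8, 46.9, 46.6 and 53.8 CPM and then 59, 105, 106 and 115 CPM. In Gpr17 the 3 libraries other than WT 3 d replicate 1 lay together at about 2-fold the level at 6 h.

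Neuronal genes that passed were mostly lower at 3 d, by modest amounts. Of 20 synaptic release genes 15 fell and 0 rose (median -0.27), with 6 lower when a cortical marker covariate was added. Vamp1, a vesicle fusion protein, was 41.8, 40.0, 44.1 and 58.8 CPM and then 31.5, 23.6, 23.4 and 33.4 CPM (-0.71 ± 0.13). The vesicle protein Sv2b was 202, 230.3, 213 and 190.2 CPM and then 149, 138, 138 and 129 CPM (-0.59 ± 0.06), and the vesicular GABA transporter Slc32a1 fell too (-0.50 ± 0.10). Of 20 genes of striatal projection neurons 8 fell and 0 rose (median -0.12). The median was -0.18 without GS 3 d replicate 1, and 5 fell with the cortical covariate. Adcy5, the adenylyl cyclase of these cells, was 1756, 1798, 1843 and 1802 CPM and then 1314, 1159.9, 1242 and 1136 CPM (-0.57 ± 0.06), and Ppp1r1b, which encodes DARPP-32, 2348, 2319, 2189 and 2137 CPM and then 1876, 1615, 1657 and 1289 CPM (-0.49 ± 0.08). Rasd2 (-0.62 ± 0.07) and Strn4 (-0.74 ± 0.05) fell too. The adenosine A2a receptor gene Adora2a also fell (-0.22 ± 0.07), a call lost without 4 of the 8 libraries in turn (-0.20 to -0.18 without them). Of 15 genes on the interneuron list 5 fell and 0 rose, namely Cck (-0.93 ± 0.23), Vip (-0.92 ± 0.27), Th (-0.62 ± 0.15), Chat (-0.23 ± 0.08) and Gad1 (-0.21 ± 0.06). Not all of these are particular to striatal interneurons, Gad1 least of all. Cck was -0.61 without WT 6 h replicate 2, and -0.23 with the cortical covariate, where it did not pass. The call of Vip was lost without WT 6 h replicate 2 (-0.78) or GS 6 h replicate 1 (-0.84), that of Chat without 5 of the 8 libraries in turn (-0.22 to -0.14 without them) and that of Gad1 without GS 6 h replicate 1 (-0.18). The number that fell was 1 with the cortical covariate, 3 without WT 6 h replicate 2, 2 without GS 6 h replicate 1 and 9 without WT 3 d replicate 1. Of 15 neuronal cytoskeleton genes 7 fell, by at most 0.53 on the log2 scale (Nefh), and 3 rose. With the cortical covariate 2 fell and 1 rose. Gap43 rose by 0.23 ± 0.07, a call lost without GS 6 h replicate 2 (0.21) or GS 3 d replicate 1 (0.16). Ina rose by 0.33 ± 0.10, a call lost without WT 6 h replicate 1 (0.31) or WT 6 h replicate 2 (0.29), with 0.19 without WT 3 d replicate 1. Sprr1a, a gene of injured neurons, rose from 0.126 to 0.341 CPM to 0.751 to 1.62 CPM (2.42 ± 0.32).

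Markers of cortical excitatory neurons, cells that lie over the striatum, moved with these values. Of 15 measured 9 fell and 1 rose (median -0.89, and -0.49 without WT 6 h replicate 2, with 6 to 11 lower when 1 library was left out), and the summed level was 482 to 621 CPM at 6 h and 353 to 433 CPM at 3 d. Slc17a7 was 17.2, 72.8, 15.3 and 15.7 CPM and then 8.04, 5.43, 5.4 and 9.4 CPM (-1.92 ± 0.45), and -1.18 without WT 6 h replicate 2. The marker that rose was Rorb (0.94 ± 0.13). Tbr1 fell (-1.44 ± 0.50), a call lost without WT 6 h replicate 2 (-0.64, adjusted p = 0.135), without GS 6 h replicate 1, WT 3 d replicate 1, WT 3 d replicate 2 or GS 3 d replicate 1 (-1.11 to -1.55), in DESeq2 and in limma-voom. Neurod2 (-1.98 ± 0.62) lost its call without WT 6 h replicate 2 (-1.08), without WT 3 d replicate 1 (-1.69) or 2 (-1.7), or without GS 3 d replicate 1 (-1.82). When the mean log2 level of these markers was added to the fit as a covariate, 2699 genes rose and 2237 fell, and 4844 of the 8668 calls (55.9%) were kept. Of the 104 numbers of list members that rose or fell, 28 moved by more than 1.5 times with it. Among them, 9 growth factor, 7 barrier transporter, 7 matrix protease and inhibitor and 4 Lrrk2 and Rab genes rose, and 2 nucleotide receptor and enzyme genes fell. The median of the activity genes became 0.81, and that of the border macrophage markers 1.51. The covariate itself separates the times, with 2.84 to 3.92 log2 CPM at 6 h and 2.07 to 2.6 at 3 d, and the part of the dissection in the neuronal values was not tested. Choroid plexus and ependyma markers rose in 2 of 15 cases, led by the cilia factor Foxj1 (1.02 ± 0.21), and in 0 with the covariate. One fell without GS 6 h replicate 1 or WT 3 d replicate 1.

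Many genes that are induced within minutes of a stimulus were higher at 3 d than at 6 h, and others did not pass. Of 16 activity genes 12 rose, 1 fell and 3 did not pass, at a median of 1.22. Egr2 was 3.91, 4.75, 3.85 and 2.82 CPM and then 52.8, 48.3, 42.6 and 22.5 CPM (3.42 ± 0.19), with 7.5 to 17.4 CPM in intact striatum, so all 4 libraries at 6 h lay below the intact range. Arc, which acts at synapses, was 44.8, 55.6, 43.3 and 45.1 CPM and then 317, 296, 269 and 144 CPM (2.42 ± 0.17), against 81.1 to 167 CPM in intact striatum. The orphan receptor genes Nr4a1 (2.42 ± 0.33) and Nr4a3 (2.75 ± 0.40) rose. Nr4a2 was the member that fell (-1.34 ± 0.49), and WT 6 h replicate 2, the library with the most cortical RNA, held 9.7 CPM of it against 1.95 to 2.88 CPM in the other libraries at 6 h. Its call was lost without 5 of the 8 libraries in turn (-1.48 to -0.70 without them). Of 15 AP-1 and stress genes 8 rose, 0 fell and 7 did not pass (1 fell without WT 6 h replicate 2 and WT 3 d replicate 1 together). Fos was 4.18, 5.4, 9.29 and 5.2 CPM and then 39.3, 33.3, 25.6 and 20.2 CPM (2.28 ± 0.26), Fosl2 12.7, 12.5, 38 and 18.2 CPM and then 115, 77.8, 64.2 and 53 CPM (1.98 ± 0.36), and Atf3 rose by 2.28 ± 0.30. GS 6 h replicate 1 held the highest Fos and Fosl2 at 6 h, and GS 3 d replicate 2 the lowest at 3 d. TGANTCA, the letters AP-1 binds, were in a promoter window of 0 of the 13 genes of this list that had one, against 6.46% of tested genes.

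Chaperone genes rose in 13 of 15 cases (median 0.80). Hspa5, the chaperone of the endoplasmic reticulum, was 167, 160.4, 172 and 174 CPM and then 475, 618, 598 and 599 CPM (1.76 ± 0.07, adjusted p = 1.68e-07). The near-identical pair Hspa1a and Hspa1b rose by 2.23 ± 0.19 and 2.01 ± 0.17. The integrated stress response list moved less, 8 of 16 higher (5 without WT 6 h replicate 2), with the folate enzyme gene Mthfd2 at 0.73 ± 0.13, and 2 lower (1 without WT 6 h replicate 2, GS 6 h replicate 2, WT 3 d replicate 2 or GS 3 d replicate 1). One of those lower was the pseudokinase gene Trib3 (-0.60 ± 0.21), a call lost without 6 of the 8 libraries in turn (-0.63 to -0.43 without them). Among p53 targets 6 of 17 rose and 3 fell, at a median of 0.18, against 23.3% and 23.1% of all tested genes. Eda2r, a death receptor gene, was 0.171, 0.253, 0.197 and 0.305 CPM and then 0.788, 1.68, 1.79 and 2.91 CPM (2.91 ± 0.34). Cdkn1a, the p21 inhibitor of cyclin-dependent kinases, fell from 44.4, 50.1, 65.8 and 72.5 CPM to 36.6, 25.9, 24.6 and 28.4 CPM (-0.99 ± 0.16) and was 11.5 to 14 CPM in intact striatum. Bbc3, which encodes the cell death activator Puma, fell too (-1.03 ± 0.11). In the Nrf2 and iron list 6 of 16 rose and 3 fell (5 without WT 3 d replicate 1), at a median of 0.009. The falls in both lists were no more frequent than over all tested genes. Hmox1, which breaks down haem, was 7.49, 35.7, 11.4 and 7.95 CPM and then 45.5, 39.7, 34.1 and 50.3 CPM (1.54 ± 0.39). WT 6 h replicate 2 was at the level of the libraries at 3 d, and the value was 2.28 without it. The ferritin light chain gene Ftl1 was 236, 279, 264 and 263 CPM and then 448, 717, 666 and 808 CPM (1.33 ± 0.13).

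Energy metabolism showed single rises on a flat background. Of 17 glycolysis genes 6 rose and 1 fell (Pfkp, -0.20 ± 0.05), at a median of 0.04. Without WT 3 d replicate 1 or GS 3 d replicate 1, 3 fell, and 2 without WT 6 h replicate 1. Hk3, a hexokinase of myeloid cells, was 0.767, 0.38, 0.672 and 0.646 CPM and then 5.19, 10.3, 9.12 and 13.2 CPM (3.92 ± 0.27), Hk2 rose by 1.88 ± 0.14, and Pfkfb3, which speeds glycolysis, was 36.3, 37.5, 40.2 and 38.3 CPM and then 96.7, 94.9, 92.9 and 88.4 CPM (1.29 ± 0.05). Of 18 oxidative phosphorylation genes 1 fell (Uqcrc1, -0.16 ± 0.05, lost without 5 of the 8 libraries in turn (-0.17 to -0.12 without them)) and 0 rose, within -0.20 to 0.03. The number that fell ran from 0 to 3 when 1 library was left out, with 2 without WT 6 h replicate 1 and 3 without WT 3 d replicate 2.

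Receptors and enzymes that handle the injected nucleotide changed in both directions. Of 18 measured 13 rose and 5 fell (3 without WT 6 h replicate 2, GS 6 h replicate 1 or WT 3 d replicate 2). P2ry6, the UDP receptor that starts phagocytosis, was 2.66, 2.78, 3.74 and 2.91 CPM and then 8.77, 10.8, 10.2 and 12.5 CPM (1.81 ± 0.13). The ATP-gated channels P2rx4 (0.94 ± 0.11) and P2rx7 (0.97 ± 0.11) rose, as did Enpp1 (1.36 ± 0.18) and the adenosine receptor Adora3 (1.63 ± 0.20). Nt5e, the enzyme that makes adenosine from AMP, was 25.3, 30.3, 42.3 and 42.9 CPM and then 23.3, 14.6, 15.5 and 13 CPM (-1.06 ± 0.20). The adenosine deaminase gene Ada (-0.99 ± 0.23), Adora1 (-0.34 ± 0.06) and Entpd3 (-0.20 ± 0.07, lost without 5 of the 8 libraries in turn (-0.21 to -0.17 without them)) fell with it and Adora2a.

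Lrrk2, the kinase named in the title, was 135, 136, 135 and 136 CPM at 6 h and 208, 157, 171 and 178 CPM at 3 d (NCBI Gene 66725, mm10 chromosome 15, positions 91672791 to 91816124). Its log2 fold change was 0.40 ± 0.08 (adjusted p = 0.00137), and the levels at 3 d lay within the 135 to 217 CPM of intact striatum. Of 20 genes of Lrrk2 and its Rab substrates 7 rose and 2 fell (median 0.03), against 23.3% and 23.1% of all tested genes (median -0.01). Those that fell were the synaptic Rab3a (-0.33 ± 0.06) and Rab3b (-0.24 ± 0.07, lost without WT 6 h replicate 2 (-0.19), GS 6 h replicate 2 (-0.22) or WT 3 d replicate 2 (-0.20)). Rab32, a small GTPase of lysosome-related organelles, was 0.989, 1.39, 1.41 and 1.31 CPM and then 4.97, 7.57, 6.41 and 11.1 CPM (2.54 ± 0.22). Lrrk1, the paralog of Lrrk2 (1.71 ± 0.19), and Rab29 (1.04 ± 0.22) rose too.

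The step was then taken for each genotype, with 2 libraries a side, from 1 fit of all 8 libraries. In WT 2646 genes rose (14.2%) and 2311 fell (12.4%), 4957 in all (26.5%). In GS 3421 rose (18.3%) and 3228 fell (17.3%), 6649 in all (35.6%). The WT libraries included the 2 that stood apart, and single libraries moved the numbers. In WT 2414 were called without WT 6 h replicate 1, and in GS 3694 without GS 6 h replicate 2. Without both libraries that stood apart, 2937 were called in WT. Of the 4957 genes called in WT 4875 (98.3%) had the same sign in GS and 3969 (80.1%) were called there with it, and those 3969 were 59.7% of the 6649 called in GS. The 2 genotypes share no library here, but both tests used 1 estimate of the spread over all 8 libraries. The calls in WT and GS are therefore not independent. In the test of the difference itself, GS change minus WT change, 0 genes passed in edgeR (smallest adjusted p = 0.526), with 1222 (6.54%) at an unadjusted p under 0.05. DESeq2 called 45 and limma-voom 0. Leaving out WT 3 d replicate 2 gave 97 in edgeR and leaving out GS 6 h replicate 2 gave 4, Fosb, Fosl2, Nr4a3 and Rgs2. On simulated counts of this size the test recovered 52% of 2-fold and 84% of 4-fold differences, and 20% of 1.5-fold ones.

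**Figure D4:**
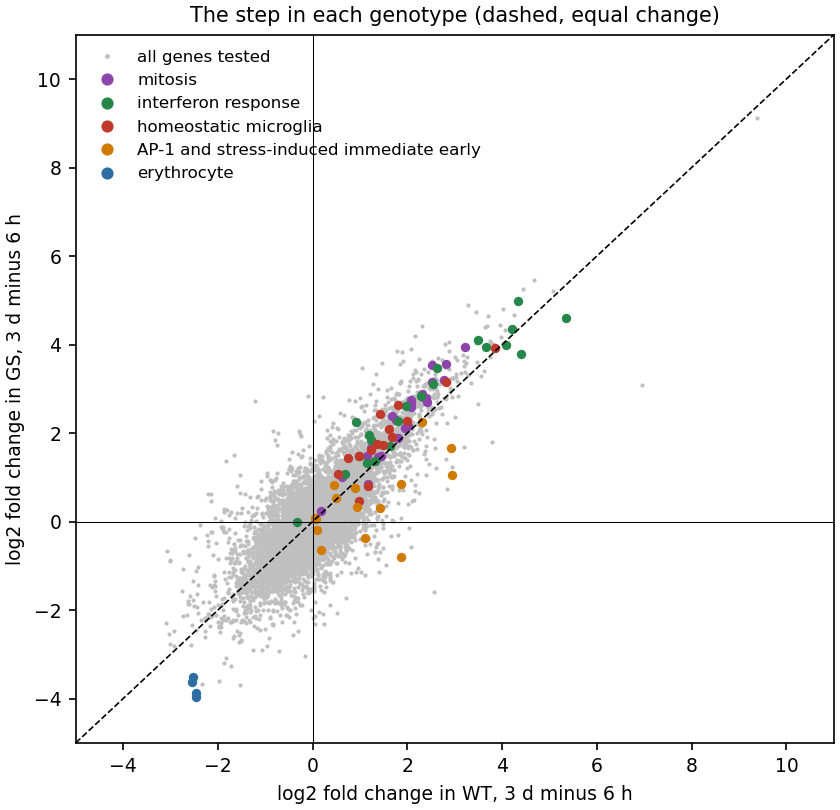
For each gene tested, the log2 fold change from 6 h to 3 d in WT (horizontal axis) is set against that in GS (vertical axis), with the members of 5 lists in colour and a dashed line of equal change. Mitosis, interferon and homeostatic microglial genes lie at or a little above the line, AP-1 genes mostly below it and globin genes below it, and the difference passed for no gene in edgeR.

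Differences between the genotypes had a direction within some lists without passing for any member. The GS change was above the WT change for 23 of 24 mitosis genes (median difference 0.44), 18 of 19 lysosomal genes (0.29) and 12 of 12 Fc receptor and ITAM genes (0.47), against 51.1% of all tested genes. Members of a list share libraries and are not independent. WT 3 d replicate 1 moves with this. Its mean over the mitosis list was 1.31 above the mean at 6 h on the log2 scale, against 2.46 in WT 3 d replicate 2, 1.96 in GS 3 d replicate 1 and 2.54 in GS 3 d replicate 2. For immediate early genes the order was the opposite, with the GS change below the WT change for 12 of 15 AP-1 genes (median -0.60) and 14 of 16 activity genes (-0.37). Fosb was 12, 13, 64.3 and 22.9 CPM at 6 h and 56.3, 35.2, 28.4 and 21.4 CPM at 3 d, with a change of 1.87 ± 0.39 in WT and -0.81 ± 0.37 in GS, and the difference did not pass (-2.68 ± 0.54, adjusted p = 0.526). GS 6 h replicate 1 was more than 2-fold above any other library at 6 h. For Fosl2 the changes were 2.94 ± 0.29 and 1.06 ± 0.27 (-1.88 ± 0.39, adjusted p = 0.526). The globin genes had the larger fitted fall in GS, a difference that did not pass, with Hbb-bs at -2.47 ± 0.28 in WT and -3.97 ± 0.32 in GS (difference -1.5 ± 0.42, adjusted p = 0.634), and the summed globin level at 3 d was 7.27 and 11.6 CPM in WT and 2.92 and 2.84 CPM in GS.

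**Figure D5:**
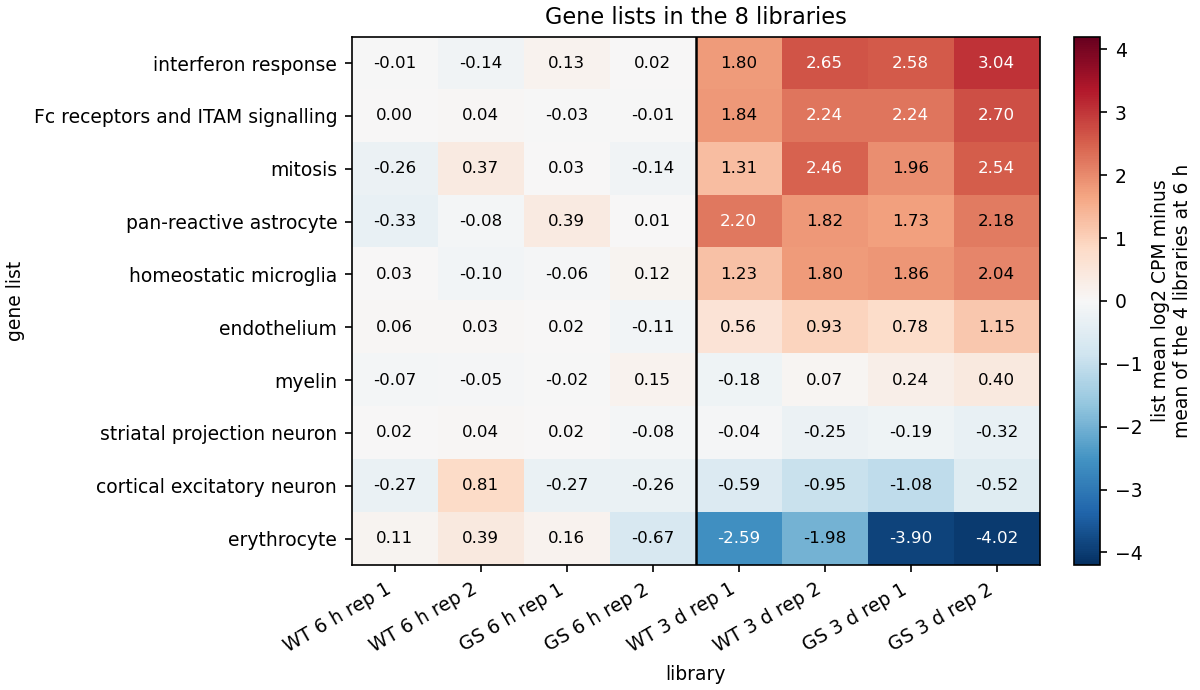
Each cell gives, for 1 list and 1 of the 8 libraries, the mean log2 CPM of the list's members minus the mean of the 4 libraries at 6 h, with red above 0 and blue below. At 3 d the interferon list runs from 1.8 in WT replicate 1 to 3.04 in GS replicate 2, the pan-reactive astrocyte list is highest in WT replicate 1 (2.2), and at 6 h the cortical list stands at 0.81 in WT replicate 2 alone.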

How the data were processed

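RNA was extracted from striatum and made into TruSeq libraries, per the labels' protocols. Values are raw whole-number counts per gene as deposited, made by the authors from reads placed on mm10 after a FastQC 0.11.7 check, per the submitters' processing notes. No source used here names the aligner, the counter or whether strand was used, so reads of overlapping genes and of near-identical copies (globins, Hspa1a and Hspa1b, Oas1a, Lyz2, C4b and the H2 genes) could be split or shared. Columns named NT are taken as WT because the labels hold no other second genotype.

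All 8 libraries were fitted with edgeR 4.0.16 in R 4.3.3 (genotype plus time, TMM factors, low-count filter by group, quasi-likelihood F test, 5 residual degrees of freedom, Benjamini-Hochberg adjustment over 18686 genes, threshold 0.05). The filter removed 771 genes. The change in each genotype and their difference came from a fit with 1 mean per group. DESeq2 1.42.0 and limma-voom 3.58.1 were alternatives. Levels use TMM factors of all 16 libraries. On simulated counts with 200 changed genes among 18686, the edgeR test of 3 d against 6 h recovered 54% of the changes set at 1.5-fold, 86% at 2-fold and 94% at 4-fold, with 15 false calls. Each gene was drawn on its own, and no simulated library stood apart. Promoter windows and positions are from RefSeq (GRCm38.p6), and 13534 tested genes had a window.

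Nothing in the labels says that replicates came from separate animals beyond the word biological, so p-values measure the spread between these libraries. The 52 gene lists and the members were chosen with earlier results of these data known. Named genes are Lrrk2, up to 15 genes a direction with the largest changes, no overlap and a mean of at least 1 CPM, up to 4 members of each list with the largest changes, and up to 5 genes a direction with the smallest p. The others, chosen after their values were seen, are list members that went against their list or filled a short count (Acan, Ada, Adora1, Adora2a, C2, Ccne2, Cd55, Cd59a, Cish, Entpd3, Fbn1, Fkbp5, Gad1, Gap43, H2-DMa, Has1, Ina, Lamb1, Lpl, Mal, Mcoln1, Mfsd2a, Nceh1, Nr4a2, Nt5e, Pfkp, Plat, Rab3a, Rab3b, Reck, Rorb, Scarb1, Socs2, Stat2, Tfrc, Tyro3 and Uqcrc1) and Apoe, Ccnd1, Cdc20, Csf1r, Fosb, Ifit1, Isg15, Ly6c2, P2rx4, P2rx7 and Rgs2. Some list members that were counted are not reported here by name. Replicate numbers were not treated as pairs, since same-numbered libraries of different groups deviated together at a correlation of only -0.0024 to 0.0787.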

Additional observations from a re-analysis of the deposited data

Results flagged for a closer look

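In 37 of 530 groups of 4 libraries 1 library lay apart from the other 3 by more than Dixon's 95% critical value, and chance alone gives about 1 group in 20. WT 3 d replicate 1 and GS 3 d replicate 2 were that library 9 times each.

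WT 3 d replicate 1 was the highest at 3 d for C3 (70.5 CPM against 4.37 to 5.7) and Plin4 (36.5 CPM against 7.37 to 8.32). It was the lowest for Tyrobp (34 CPM), Tie1 (3.48 CPM), Slco1c1 (78.4 CPM), Slc38a3 (78.6 CPM), Gpr17 (59 CPM) and Hspa5 (475 CPM), and for the mean of the oligodendrocyte precursor list (4.47 log2 CPM). GS 3 d replicate 2 was the highest for Cybb, a subunit of the phagocyte oxidase (11.4 CPM), Tlr2 (21.6 CPM), Vwf (17.2 CPM), Ctsc (61.2 CPM), Runx1 (10.3 CPM) and the mean of the astrocyte homeostasis list (7.99 log2 CPM). It was the lowest for Cfap126 (1.5 CPM), Ndufa9 (64.4 CPM) and Hbegf (37 CPM). WT 3 d replicate 2 was the lowest for Acr (0.679 CPM).

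At 6 h WT replicate 2 was the highest for Slc17a7 (72.8 CPM against 15.3 to 17.2), Cfap126 (1.84 CPM), Arc (55.6 CPM) and the mean of the cortical excitatory neuron list (3.92 log2 CPM), and the lowest for the barrier transporter list (3.78 log2 CPM). WT replicate 1 was the lowest for Rrm2 (1.43 CPM), Slc32a1 (208 CPM) and the cholesterol synthesis list (5.06 log2 CPM), and the highest for Col1a2 (6.12 CPM). GS replicate 1 was the highest for Emp1 (5.38 CPM), Cebpb (2.59 CPM) and the scavenger receptor list (5.14 log2 CPM). GS replicate 2 was the lowest for Cxcl16 (0.556 CPM), Sdc1 (0.467 CPM), Chat (32.9 CPM) and the means of the cytokine (2.64 log2 CPM), striatal projection neuron (9.09 log2 CPM) and myeloid transcription factor (3.29 log2 CPM) lists.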

How the results depend on the processing

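Size factors by RLE, DESeq2, limma-voom, the 2 other low-count filters, all 16 libraries in 1 fit and a fit without genotype left the numbers of genes that rose and fell within 1.5 times, and DESeq2, limma-voom and RLE kept 96.7% to 99.1% of the 8668 calls. With the cortical marker level as a covariate 2699 genes rose and 2237 fell, 1077 were called in WT, Tbr1 turned to 0.36, Nr4a2 to 0.24 and Stat2 to 0.015, and 21 of the 213 genes named by rule and 20 of the 47 named after their values were seen no longer passed. Tested against a 1.5-fold change, 1149 rose and 470 fell, a stricter question by construction. Leaving out 1 library gave 3685 to 4477 genes higher, 3522 to 4323 lower, 2414 to 5589 in WT, 3694 to 7137 in GS and 0 to 97 for the genotype difference, and the cause was not tested. Without WT 6 h replicate 2 and WT 3 d replicate 1 together, an alternative chosen after seeing the data, 2937 were called in WT. The genotype difference called 45 genes in DESeq2. With the replicate number as a block it called 1, Peg10, with 4300 genes higher, 4249 lower, 4914 in WT and 6562 in GS, and the same-numbered libraries are not known to be paired. Of the 213 genes named by rule 210 passed, 197 of them in each fit that left out 1 library and 13 not in all.

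Limits are the 2 libraries per genotype and time, the overlap of dissection with time and the absence of vehicle-injected mice from these groups. Low counts limit the cytokine and leukocyte lists, of which few members were in the table.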

Other observations

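Genes of 3 further groups are given by level alone, with no test, since the groups were chosen after their values were seen. The first group holds feedback and target genes of the ERK pathway, which growth factor receptors switch on. All 4 libraries at 3 d were above every library at 6 h for 7 of 7 genes, against 21.7% of all tested genes. The ERK phosphatase gene Dusp6 was 20.9, 21.1, 28.7 and 21 CPM at 6 h and 85.3, 77, 71 and 64.2 CPM at 3 d, with 25.6 to 43.5 CPM in intact striatum. Spry4, an inhibitor of the pathway, was 6.12, 6.34, 5.74 and 5.11 CPM and then 11.8, 12.9, 12.5 and 13.1 CPM. The ETS factor gene Etv5, already named above for its small p, was 37.5, 36.3, 33.8 and 31.8 CPM and then 130.0, 132, 137 and 112 CPM, with 73.7 to 97.3 CPM in intact striatum. Spry4 and Etv5 were thus below the intact range at 6 h and above it at 3 d.

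Of 15 genes of the circadian clock 3 lay wholly above their level at 6 h, 7 wholly below and 5 overlapped. The shares over all tested genes were 21.7% wholly above and 22% wholly below. Per2, a repressor of the clock, was 52.5, 43.1, 34.2 and 34.9 CPM and then 123, 110.0, 120.4 and 99.6 CPM, and Arntl, an activator, 25.8, 26.8, 31.5 and 27.4 CPM and then 54.2, 54.6, 52.2 and 46.6 CPM. Tef, an output factor, was 696, 681, 624 and 633 CPM and then 414, 416, 422 and 442 CPM, and Per3 113, 109, 96.4 and 100.2 CPM and then 67.9, 59.4, 64.9 and 66.2 CPM. The time of day at which tissue was taken is not in the labels.

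Of 11 genes known to be induced by glucocorticoids 0 lay wholly above, 3 wholly below (Fkbp5, Map3k6 and Plin4) and 8 overlapped. Over all tested genes 22% lay wholly below, so the 3 genes are near the background share. Fkbp5 was 91.1, 107, 118 and 130.5 CPM at 6 h and 78.9, 47.9, 49.5 and 48 CPM at 3 d, and Map3k6 8.97, 10.3, 15.6 and 13 CPM and then 5.74, 2.44, 2.84 and 2.68 CPM. For all 3 genes WT 3 d replicate 1 was the highest library at 3 d.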
